A study of Arabidopsis thaliana with 18 samples.

Results

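Root tips of Arabidopsis thaliana seedlings carrying the mutation puchi-2 were compared with wild-type root tips in the absence of added peptide. The comparison rests on 6 of the 18 arrays in the series, chosen by their titles: 3 of puchi-2 control and 3 of wild-type control. All seedlings were 5 days old, and each array holds RNA from roughly 80 pooled tips cut to 1 cm. In control groups the seedlings were transferred to medium without peptide, and in TOLS2 groups to medium holding the secreted root peptide TOLS2 at 1 µM, for a treatment of 3 h. The other 12 arrays are wild type and puchi-2 with TOLS2, and rlk7-3, with and without TOLS2, again 3 for each. RLK7, the gene that the name rlk7-3 points to, is a receptor kinase. The labels call the arrays of a group biological replicates, and no mutation or treatment besides those named is given for any group. They state neither the lesion of puchi-2 nor the number of lines behind it.

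PUCHI is a transcription factor of the AP2/ERF family. In Arabidopsis roots it is switched on in the cells that found a lateral root, downstream of auxin, and helps to keep the divisions of the young primordium in order. LBD16 and LBD29, LOB-domain transcription factors, act in the auxin pathway that starts lateral roots. The question addressed here is which transcripts of the root tip differ in puchi-2 before any peptide is given.

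Expression is given as log2 level per probe set, so a difference of 1 is a 2-fold change. All differences below are puchi-2 minus wild type unless stated. A probe set is called changed when its limma p, adjusted by Benjamini-Hochberg over the 17481 probe sets with a gene, is below 0.05. Values of puchi-2 and wild-type control arrays correlated between 0.989 and 0.991 over all probe sets, the same span as between arrays within those 2 groups. The median difference over all probe sets was -0.00, and 98.7% of them differed by less than 0.5. The middle 95% of differences lay between -0.35 and 0.34, and the median half-width of a 95% confidence interval was 0.27.

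Few probe sets with a gene were called. The 54.5% of probe sets without a gene were outside this test, and some of them are given further below. Of 17481 probe sets, 3 were called (0.0172%): QQS and ZCW7 were higher in puchi-2 (2 probe sets, 0.0114%), and AT2G23400 was lower (1 probe set, 0.00572%). At an unadjusted p below 0.05 there were 1092 probe sets (6.25%), 518 higher and 574 lower. All puchi-2 arrays lay outside the wild-type range for 2303 probe sets (13.2%), of which 1126 were higher (6.44%) and 1177 lower (6.73%). A difference of at least 1 was found for 4 probe sets higher and 7 lower, and 2 of the called genes were among those that were higher.

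QQS (AT3G30720, chromosome 3), an orphan gene of Arabidopsis thaliana that influences starch content and the balance of carbon and nitrogen, showed the widest difference among probe sets with a gene. Its level was 4.04, 4.13 and 4.57 on the wild-type control arrays and 6.88, 7.39 and 7.05 on the puchi-2 control arrays. All puchi-2 arrays stood far above all wild-type arrays, and the spread within each group was small beside the gap. The difference was 2.86 (SE 0.20, 95% interval 2.44 to 3.28, limma adjusted p = 7.51e-06), a 7.25-fold higher level. In rlk7-3 control arrays QQS lay at 4.27, 4.14 and 3.87, which overlaps wild type. The rlk7-3 difference from the same wild-type arrays was -0.16 (95% interval -0.58 to 0.27, adjusted p = 0.912). Because root tips were measured whole, more cells expressing a gene and more RNA per cell cannot be told apart here or in any result below.

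ZCW7 (AT1G59600, chromosome 1) was the other called gene with a higher level. It was measured at 5.01, 4.67 and 4.91 in wild type and at 6.40, 6.11 and 6.21 in puchi-2. The groups did not overlap. The difference was 1.38 (SE 0.15, 95% interval 1.05 to 1.70, adjusted p = 0.00215), or 2.6-fold. The rlk7-3 control arrays were at 6.50, 6.34 and 6.10, within or close to the puchi-2 range and above wild type, and their difference from wild type was called at 1.45 (adjusted p = 0.000735). In that rlk7-3 comparison, which uses the same wild-type arrays, 9 of 17481 probe sets were called (0.0515%), 4 higher (0.0229%) and 5 lower (0.0286%). The puchi-2 call was lost when the model held only the 2 groups compared (adjusted p = 0.105), and when replicate 1 of every group was left out (adjusted p = 0.368).

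AT2G23400 (chromosome 2) was the called gene with a lower level. Wild-type arrays gave 8.34, 8.36 and 8.20, and puchi-2 arrays gave 7.68, 7.41 and 7.56. All puchi-2 arrays were below all wild-type arrays, with a difference of -0.75 (SE 0.10, 95% interval -0.96 to -0.54, adjusted p = 0.0106), a 1.68-fold lower level. The rlk7-3 control arrays were also below wild type, at 7.73, 7.69 and 7.54, with a called difference of -0.65 (adjusted p = 0.0293). The puchi-2 call was the least firm of the 3: adjusted p was 0.102 and 0.112 without wild-type control replicate 1 or 2, 0.0779 and 0.0563 without puchi-2 control replicate 2 or 3, and 0.463 with only the 2 groups compared.

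**Figure D1:**
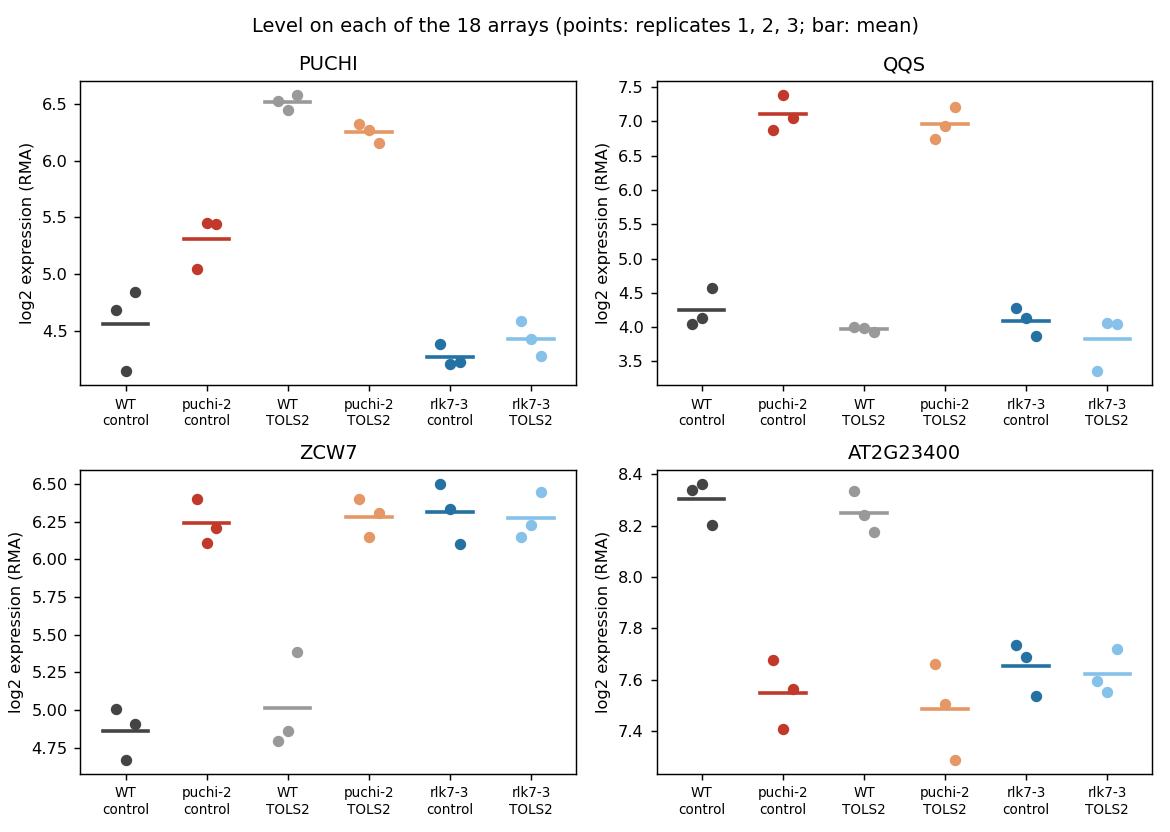
Log2 level of PUCHI, QQS, ZCW7 and AT2G23400 on each array (points) with the group mean (bar), for the 6 groups of 3 arrays. QQS is high in puchi-2 with and without TOLS2 only, ZCW7 is high and AT2G23400 low in both mutants, and PUCHI is highest where wild type or puchi-2 received TOLS2.

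The transcript of PUCHI itself (AT5G18560, chromosome 5) was not called. Its level was 4.68, 4.15 and 4.85 in wild-type control and 5.04, 5.45 and 5.44 in puchi-2 control. The puchi-2 arrays were all above the wild-type arrays, by 0.75 on average (SE 0.15, 95% interval 0.43 to 1.08, adjusted p = 0.232), and the gene ranked 13 of 17481 by p. With TOLS2 the order was the opposite: wild type was at 6.52, 6.45 and 6.58 and puchi-2 at 6.32, 6.27 and 6.15, a difference of -0.27 (95% interval -0.59 to 0.06, adjusted p = 0.659). The genotype difference with TOLS2 minus that in control was -1.02 (95% interval -1.48 to -0.56, adjusted p = 0.709). In rlk7-3 control PUCHI was at 4.39, 4.21 and 4.22. Since the labels do not say where the mutation lies or which part of the transcript the probes read, the signal does not check the genotype of the puchi-2 arrays.

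Of 38 lateral root regulators written in a list, 4 were measured by a probe set with a single gene, and 0 were called, beside 0.0172% of all probe sets. LBD16 was at 8.18, 8.09 and 8.25 in wild type and 7.83, 7.89 and 7.89 in puchi-2, so the groups did not overlap (difference -0.31, SE 0.09, adjusted p = 0.517). LBD29 lay on the other side, at 8.68, 8.68 and 8.75 in wild type and 9.07, 8.96 and 8.99 in puchi-2 (difference 0.30, SE 0.14, adjusted p = 0.797). CR4, a receptor-like kinase that restricts divisions around the primordium, overlapped between the groups with a difference of -0.26. Thus PUCHI and LBD29 were above the wild-type range (beside 6.44% of all probe sets) and LBD16 below it (beside 6.73%). None of them passed the test over all probe sets. With TOLS2, the LBD16 difference was -0.91 and called (adjusted p = 0.000224), in a comparison where 0.0744% of probe sets were called, and the difference between the 2 genotype differences was -0.60 (adjusted p = 0.709).

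Beside PUCHI, 16 uncalled genes had the largest differences among those whose groups did not overlap, 7 higher and 9 lower in puchi-2. Their adjusted p ranged from 0.1 to 0.797. AT1G34910 was at 2.98, 2.59 and 2.61 in wild type and 4.04, 3.95 and 4.59 in puchi-2, a difference of 1.47 (adjusted p = 0.391). AT4G09440 differed by 1.11, LCR85, a small cysteine-rich defensin-like protein, by 0.82, and AT1G34047 by 0.80. AT4G29710, AT1G36240 and AT2G32160 differed by 0.79, 0.77 and 0.74. By the choice made, all 7 genes had higher values on every puchi-2 array than on any wild-type array, as had 6.44% of all probe sets.

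AT5G01870 was at 6.45, 6.56 and 6.84 in wild type and at 4.20, 5.92 and 4.31 in puchi-2, where replicate 2 stood well above the other arrays of its group (difference -1.80, adjusted p = 0.431). AT4G08780 was at 7.45, 7.22 and 7.43 in wild type and 5.54, 6.01 and 5.40 in puchi-2, a difference of -1.72 (SE 0.28, adjusted p = 0.1). AT5G45670 was at 6.23, 6.54 and 7.16 against 5.04, 5.63 and 4.75 (difference -1.50, adjusted p = 0.232). CCOAMT, a caffeoyl-CoA 3-O-methyltransferase by name, differed by -1.28 and AT4G12870 by -1.22. LCR37, another small cysteine-rich protein gene, was at 7.65, 6.93 and 7.24 in wild type and 6.32, 6.02 and 5.94 in puchi-2 (difference -1.18, adjusted p = 0.464). AT5G19890, AT1G59865 and the MADS-box gene AGL83 differed by -1.09, -0.94 and -0.94. None of these 9 passed the test over all probe sets. That all puchi-2 arrays lay below wild type in each follows from the choice made, and 6.73% of all probe sets share it.

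**Figure D2:**
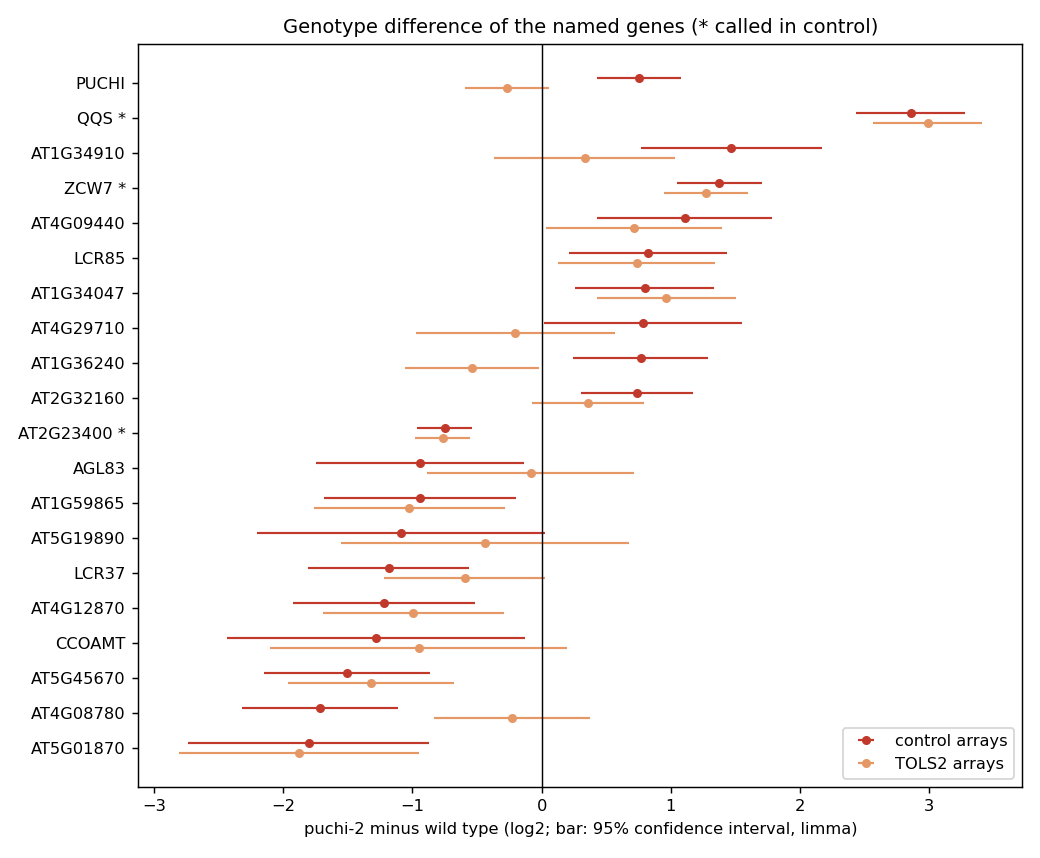
Difference in log2 level, puchi-2 minus wild type, for PUCHI, the 3 called genes and the 16 uncalled genes with the largest differences, with 95% confidence intervals from the limma fit, in control arrays and in TOLS2 arrays. QQS stands alone at the top in both, while AT4G08780 goes from -1.72 in control to -0.23 with TOLS2.

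The TOLS2 arrays give the same genotype difference a second time, from group means with no array in common. The tests are not separate, since both comparisons take their error estimate from the model of all arrays. In that model all 3 called genes were called again. With only the wild-type and puchi-2 TOLS2 groups in the model, 1 of 17481 probe sets was called, higher in puchi-2. QQS was at 4.00, 3.99 and 3.93 in wild type with TOLS2 and 6.74, 6.94 and 7.21 in puchi-2 with TOLS2, a difference of 2.99 (SE 0.20, adjusted p = 4.02e-06). ZCW7 was at 4.79, 4.86 and 5.38 against 6.40, 6.15 and 6.31, a difference of 1.27 (adjusted p = 0.00333). AT2G23400 was at 8.34, 8.24 and 8.17 against 7.66, 7.51 and 7.29, a difference of -0.77 (adjusted p = 0.00424). For these genes the genotype difference with TOLS2 minus that in control was 0.13 (95% interval -0.46 to 0.73) for QQS, -0.10 (-0.57 to 0.36) for ZCW7 and -0.01 (-0.31 to 0.28) for AT2G23400, so each interval includes 0.

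With TOLS2, 13 of 17481 probe sets were called (0.0744%), 3 higher (0.0172%) and 10 lower (0.0572%), and 1514 had an unadjusted p below 0.05 (8.66%). The groups did not overlap for 2337 (13.4%). Of the 16 uncalled genes given above, 14 kept their sign there, and the median TOLS2 difference, taken in the direction of the control difference, was 0.66. AT5G01870 differed by -1.88 and AT5G45670 by -1.32 with TOLS2, with no overlap of groups in either. AT4G29710 and AT1G36240 changed sign, to -0.21 and -0.54. AT4G08780 differed by -0.23 with TOLS2 (95% interval -0.83 to 0.37), and the difference of 1.49 between its genotype differences had an adjusted p of 0.996. Over all probe sets, 10513 of 17481 had the same sign in both comparisons (60.1%) and the correlation across probe sets, which are not independent replicates, was 0.287. Among the 1092 probe sets with an unadjusted p below 0.05 in control, 790 had the same sign (72.3%) and 217 of these also reached an unadjusted p below 0.05 with TOLS2 (19.9% of the 1092). For the difference between the genotype differences, limma called 0 of 17481 probe sets (0.0%), with 708 at an unadjusted p below 0.05 (4.05%).

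**Figure D3:**
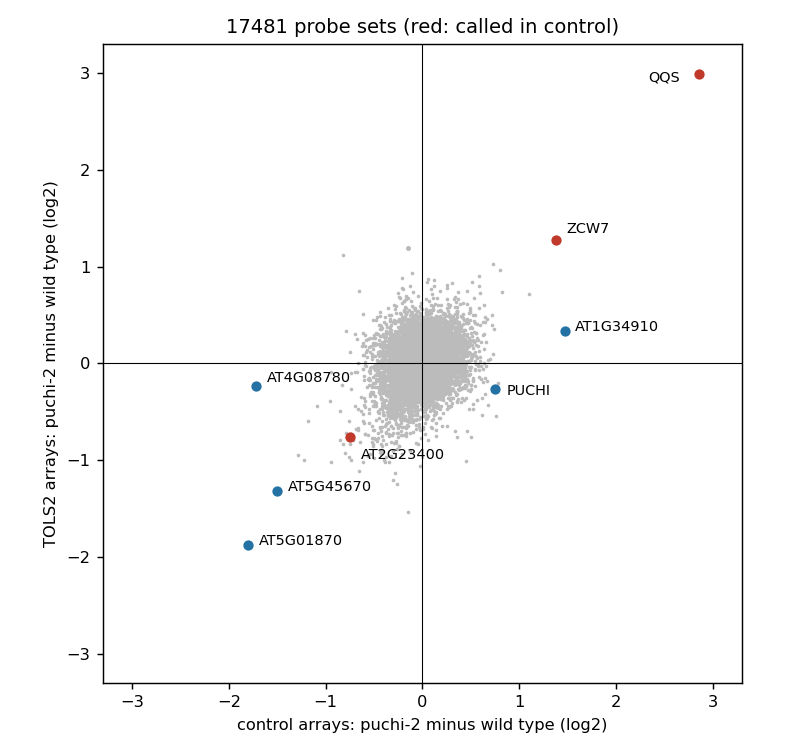
Each point is a probe set, with the log2 difference of puchi-2 minus wild type in control arrays on the x axis and in TOLS2 arrays on the y axis. The 3 called genes (red) have similar values on both axes, QQS at 2.86 and 2.99, while PUCHI lies at 0.75 in control and -0.27 with TOLS2, and most probe sets lie near 0 on both axes. Other genes with large control differences are marked in blue.

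The rlk7-3 control arrays, set against the same wild-type arrays, gave these genes values on either side. CCOAMT, LCR37 and AT5G19890 differed in rlk7-3 by -1.72, -1.17 and -1.11, and LCR85, AT2G32160 and AT1G34047 by 0.81, 0.78 and 0.72, each without overlap between rlk7-3 and wild type. AT4G08780 differed by -0.85. The genes with large puchi-2 differences AT1G34910, AT5G01870 and AT5G45670 differed in rlk7-3 by 0.14, 0.24 and -0.24, with overlapping groups. Since both mutants are compared with the same 3 wild-type arrays, these values are not independent of those for puchi-2.

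A pair of genes called with TOLS2 had small p in control too, and they are named here after their values were seen. CHX16, a member of the cation/proton exchanger family, was at 8.14, 8.11 and 8.26 in wild-type control and 7.55, 7.88 and 7.60 in puchi-2 control (difference -0.49, adjusted p = 0.232), and differed by -0.78 with TOLS2 (adjusted p = 0.00333). AT5G66830 was at 8.33, 8.28 and 8.53 against 7.90, 7.89 and 7.96 (difference -0.46, adjusted p = 0.201), and differed by -0.49 with TOLS2 (adjusted p = 0.0441). In both genes every puchi-2 control array was below every wild-type control array. The rlk7-3 control arrays differed from the same wild-type arrays by -0.61 for CHX16 (adjusted p = 0.0319) and by -0.48 for AT5G66830 (adjusted p = 0.0662).

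Gene lists for pathways of the root had 0 called members in control, so they are described by their values. No list was measured in full, so the medians describe the measured genes only. Measured were 18 of 98 listed auxin genes, 32 of 67 wall loosening genes and 36 of 114 peptide and receptor genes. Of 18 measured auxin response and transport genes, 14 were higher and 4 lower, with a median difference of 0.11 beside -0.00 over all probe sets. In 4 of the 18 the puchi-2 arrays were all above wild type (22.2%, beside 6.44% of all probe sets), and in 0 all below. WES1, also called GH3.5, an enzyme that joins auxin to amino acids, was at 9.13, 9.09 and 9.08 in wild type and 9.40, 9.40 and 9.50 in puchi-2 (difference 0.33, SE 0.08, adjusted p = 0.431), and differed by 0.32 with TOLS2. IAA29, an Aux/IAA repressor of auxin response, was at 3.98, 4.07 and 3.85 against 4.34, 4.45 and 4.28 in control (difference 0.39, adjusted p = 0.663) but differed by -0.09 with TOLS2. GH3.9, of the same family as WES1, and IAA18, another Aux/IAA gene, were lower on average in control, by differences of -0.33 and -0.17 with overlapping groups. The median of the list was 0.06 in the TOLS2 arrays, and in control it was 0.03, with 11 genes higher, once wild-type control replicate 1 was left out.

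The measured genes of other transcription factor and growth lists had medians near 0. The 6 measured AP2/ERF genes, of 65 listed, had a median of 0.06. PUCHI was the only measured member whose groups did not overlap (16.7%, beside 13.2% of all probe sets). Of 3 measured LOB-domain genes (41 listed), LBD29 was above and LBD16 below the wild-type range (66.7% in all, beside the same 13.2%). The 4 measured cell cycle genes, of 73 listed, had a median of 0.10. AUR2, an aurora kinase of dividing cells, was at 8.23, 8.19 and 8.12 in wild type and 8.40, 8.39 and 8.30 in puchi-2 (difference 0.19, adjusted p = 0.775). The 8 measured cytokinin genes, of 50 listed, had a median of 0.02 with overlapping groups in every gene. FACT, which makes caffeate esters of fatty alcohols for suberin waxes, was the measured gene of the list for very-long-chain fatty acids, cutin and suberin, and differed by -0.02.

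Among cell wall and peptide genes, 32 wall loosening and xyloglucan genes had a median of 0.02, with 6 above and 1 below the wild-type range (21.9% in all, beside 13.2% of all probe sets). EXPB3, a beta-expansin, was at 9.01, 8.86 and 8.85 in wild type and 9.30, 9.50 and 9.55 in puchi-2 (difference 0.54, SE 0.25, adjusted p = 0.797). EXPA4, an alpha-expansin, differed by 0.27, XTH21, a xyloglucan endotransglucosylase, by 0.23, and EXLB1, an expansin-like gene, by -0.45. The 5 pectin genes had a median of -0.09 and overlapped in every gene. The 36 peptide and receptor genes had a median of 0.05, with 6 above and 2 below wild type (22.2% in all, against the same 13.2%). RALFL31 and RALFL22, genes of the RALF family of growth peptides, differed by 0.28 and 0.38, CLE26, a CLE peptide gene, by 0.53, and IDL4, an IDA-like peptide gene, by -0.34. IDL4 was at 6.83, 6.87 and 7.06 in wild type and 6.62, 6.60 and 6.52 in puchi-2, and differed by -0.50 with TOLS2.

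The list of class III peroxidases was drawn by gene name, so family members without such a name are not in it. Of its 6 measured genes (29 listed), 4 were below the wild-type range (66.7%, beside 6.73% of all probe sets) and 0 above. Their median was -0.12. AT5G64120 of this list was at 10.80, 10.70 and 10.95 in wild type and 10.47, 10.35 and 10.35 in puchi-2 (difference -0.43, adjusted p = 0.713), and Prx37 differed by -0.17. The TOLS2 arrays gave this list a median of 0.08. In rlk7-3 control, compared with the same wild-type arrays, all 6 were lower with a median of -0.18. There 3 lay below the wild-type range and 0 above (beside 9.46% of all probe sets below), so the lower values are not particular to puchi-2. Of 9 measured immune and wounding genes (101 listed) 8 were lower, with a median of -0.12, and 2 were below the wild-type range and 0 above (22.2%, beside 13.2%). In rlk7-3 control 7 of the 9 were lower with a median of -0.18, and 5 were below the wild-type range and 0 above (beside 9.46% of all probe sets below). STZ, a stress-responsive zinc finger repressor, spread widely, at 9.62, 8.21 and 8.79 in wild type and 8.51, 7.72 and 8.12 in puchi-2 (difference -0.76, adjusted p = 0.812), and WRKY6, a WRKY transcription factor, differed by -0.19. The 85 defensin-like genes had a median of 0.04, with 5 above and 7 below wild type (14.1%), a share near that of all probe sets. SCRL24 differed by 0.47 and LCR32 by -0.47, beside LCR85 and LCR37 above.

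Of 54 UDP-glycosyltransferases, 1 was above and 4 below (9.26% in all, beside 13.2% of all probe sets), with a median of -0.05. UGT71C3 was at 7.18, 7.14 and 7.10 in wild type and 6.93, 6.78 and 7.02 in puchi-2 (difference -0.23, adjusted p = 0.516), and UGT74D1, which glucosylates auxin and its oxidised form, differed by -0.21. The 28 measured cytochrome P450 genes, of 241 listed, had a median of 0.02 with 1 on each side (7.14%), CYP71B37 differing by 0.32. The 14 glutathione transferases had a median of -0.10 with 1 on each side (14.3%), GSTU20 differing by 0.34. The 9 genes of abscisic acid, cold and drought had a median of -0.02 with 1 above wild type (11.1%), the 2 hypoxia genes -0.05, and the 2 nutrient genes -0.22. HSP93-III, the measured member of the heat shock list, differed by 0.01, and CYP71B30P, the measured pseudogene, by -0.33. Of 6 histone genes, HIS1-3, a linker histone induced by drought, was below the wild-type range on every puchi-2 array (difference -0.51, adjusted p = 0.729). The other 5 overlapped, so 16.7% lay outside the range, beside 13.2% of all probe sets.

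**Figure D4:**
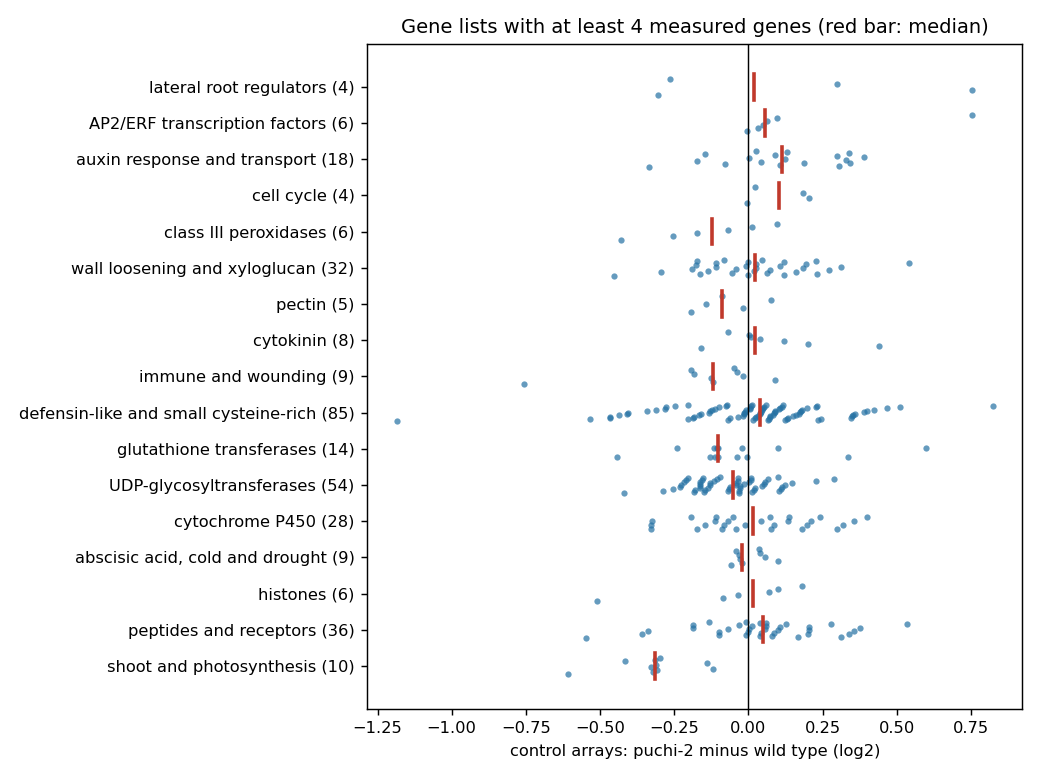
Difference in log2 level, puchi-2 minus wild type in control arrays, for each measured member of each gene list (points) with the list median (bar). Lists with at least 4 measured genes are shown. The photosynthesis genes all lie below 0, with a median of -0.31, and the other medians lie between -0.12 and 0.11.

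Few marker genes of root cell types were measured: 2 of 22 for root hair cells, 2 of 22 for xylem and 3 of 9 for the stem cell niche. They are too few to check the make-up of the tissue. EXPA7 and EXPA18, expansins of root hair cells, were present at means of 8.87 and 10.91 in puchi-2 and 8.88 and 10.95 in wild type, with overlapping groups. The 2 xylem genes had a median difference of 0.09. Of 3 stem cell niche genes, JKD, a zinc finger factor of the ground tissue and quiescent centre, was at 10.02, 10.04 and 10.15 in wild type and 9.84, 9.94 and 9.81 in puchi-2 (difference -0.21, adjusted p = 0.699). BBM and AGL42 overlapped, so 33.3% lay outside the wild-type range, beside 13.2% of all probe sets. Root cap, endodermis, phloem and pericycle markers were not analysed here, nor were the lists for callose, gibberellin and brassinosteroid, jasmonate, lipid transfer proteins, terpenoids and glucosinolates, and ribosomal proteins, since no listed member had a probe set with a single gene.

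Of the lists with at least 4 measured genes, photosynthesis genes (10 measured of 57 listed) had the median furthest from 0. All 10 measured members were lower in puchi-2 control than in wild-type control, where 51.2% of all probe sets were lower, and in 6 of them every puchi-2 array was below wild type (beside 6.73% of all probe sets). The median difference was -0.31, the range -0.61 to -0.12, and 0 of the 10 were called. LHCB4.2, a light-harvesting protein of photosystem II, was at 6.47, 6.73 and 6.81 in wild type and 6.26, 5.90 and 6.03 in puchi-2 (difference -0.61, SE 0.23, adjusted p = 0.706). PSAE-1, a subunit of photosystem I, was at 6.22 ± 0.07 against 5.92 ± 0.08 (SD, n = 3, difference -0.30). RCA, the activase of Rubisco, was at 7.80, 7.92 and 8.13 against 7.62, 7.54 and 7.78 (difference -0.31), and PSBY, a small photosystem II protein, at 5.95, 6.09 and 5.97 against 5.83, 5.53 and 5.72 (difference -0.31). The groups of these 4 genes did not overlap. PSBW, LHB1B2, PSAN and LHCB4.1 differed by -0.42, -0.33, -0.32 and -0.32, and SBPASE and LHCB4.3 by -0.14 and -0.12.

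The mean level of the 10 photosynthesis genes on an array ran from 6.47 to 6.70 in wild-type control and from 6.12 to 6.34 in puchi-2 control, without overlap. With TOLS2 all 10 were again lower in puchi-2, 4 of them without overlap (beside 5.74% of all probe sets that were lower without overlap), with a median of -0.31. The mean per array ran from 5.99 to 6.30 in wild type with TOLS2 and from 5.55 to 6.07 in puchi-2 with TOLS2, so there the groups overlapped. Arrays of the same replicate number were also compared, a step added after values were seen. The puchi-2 mean with TOLS2 was lower in all 3 pairs, by differences of -0.49, -0.27 and -0.23. In control these were -0.18, -0.41 and -0.36. The 10 genes are read on the same arrays and are not independent replicates. In rlk7-3 control, compared with the same wild-type arrays, 9 of 10 were lower with a median of -0.15 and 0 without overlap (beside 9.46% of all probe sets). Of 63 genes on the plastid chromosome, a group chosen after values were seen, 39 were lower in control with a median of -0.02, and 12 were below and 3 above the wild-type range (beside 6.73% and 6.44% of all probe sets). In TOLS2 arrays 50 of the 63 were lower, with a median of -0.08. Whether the share of green or shoot-proximal tissue in the pooled tips moved with genotype was not tested.

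**Figure D5:**
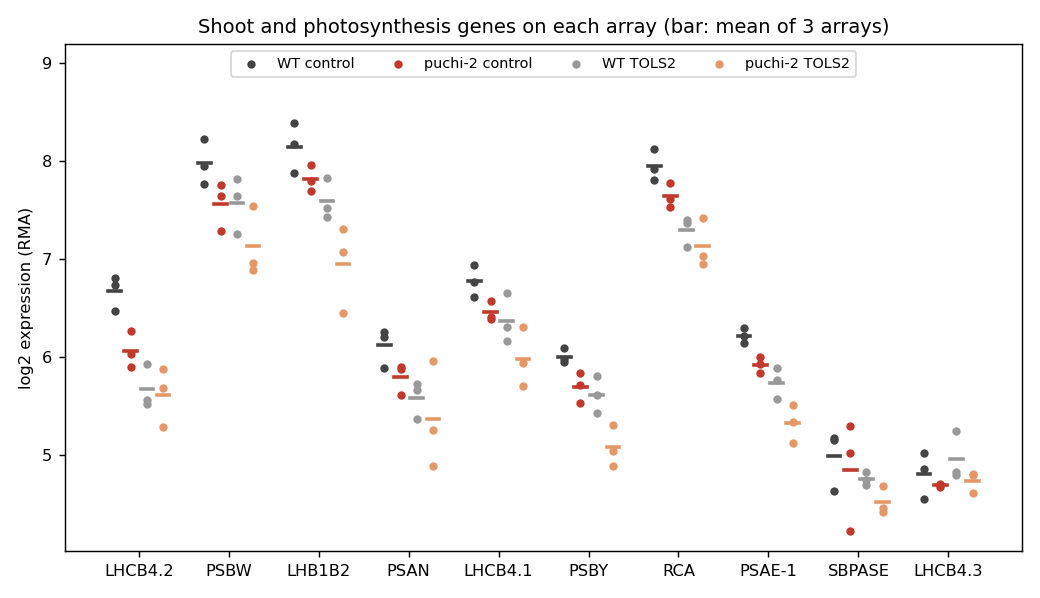
Log2 level of each of the 10 photosynthesis genes (x axis) on the arrays of wild type and puchi-2, in control and with TOLS2 (points), with the mean of 3 arrays (bar). In every gene the puchi-2 mean is below the wild-type mean of the same treatment, and in 6 of them the control groups do not overlap.

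The share of genes outside the wild-type range was 12.9% on chromosomes 1, 2 and 3, 13.4% on chromosomes 4 and 5 and 23.8% of the 63 genes on the plastid chromosome. The 3 called genes lie on 3 different nuclear chromosomes. Around PUCHI on chromosome 5, the nearest 3 measured genes on each side differed by -0.08 to 0.04 with overlapping groups. Of the 50 measured genes nearest to it, 25 on each side, 0 were called, 4 lay above and 3 below the wild-type range. The median size of difference, sign aside, was 0.069 among these genes, 0.14 in the like window around QQS, 0.16 around ZCW7 and 0.093 around AT2G23400, beside 0.088 over all genes. The window around ZCW7 holds AT1G59865, given above at -0.94. The nearest 3 measured genes on each side differed by -0.10 to 0.32 around QQS, by -0.23 to 0.49 around ZCW7 and by -0.17 to 0.03 around AT2G23400. Those around QQS had low levels, at wild-type control means of 2.21 to 3.38. Around QQS and ZCW7 a neighbour each, AT3G30540 and ZCF125, was above the wild-type range by 0.32.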

How the data were processed

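Total RNA of root tips was hybridised to 1-colour arrays. Per the submitters' processing notes the authors deposited log2 values made with RMA, which brings arrays to a common distribution, so that a shift shared by most genes would not show and differences of dim probe sets are compressed. No source used here gives the software version or the genome build. Values were used as deposited (0.38 to 13.98, array medians 6.19 to 6.30), with no filter and no pseudocount. For arrays, their number limits the precision.

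Of 38408 probe sets, the platform annotation gave 1 gene for 16722, several for 759 and none for 20927 (54.5%). Tests covered the 17481 with a gene, and probe sets with several genes were never named. Names came from RefSeq (TAIR10.1), which matched 16574 probe sets and gave the order of genes. No sequence was used.

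The test was limma's (version 3.58.1, under R 4.3.3), two-sided, from a linear model of all 18 arrays with a mean for each of the 6 groups and 12 residual degrees of freedom, followed by eBayes. SD is over 3 arrays and SE is that of limma.

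The text names PUCHI, up to 15 called genes in each direction, where fewer than 10 were called the largest differences with groups that do not overlap up to 10 in each direction, and up to 4 members of a list by p. The comparison and all gene lists were chosen with earlier results of these data known. Alternatives were other probe set filters, quantile normalization or centring of arrays, a trended robust prior, array weights, only the groups compared, the replicate block, and leaving out arrays.

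Same-numbered arrays of puchi-2 and wild type correlated at 0.07, -0.07 and 0.07 in control, and at 0.35, 0.15 and 0.18 with TOLS2, as deviations from group means. Above 0.1 in every pair, the numbers pair the TOLS2 arrays, where the block left the count of calls as it was. In control the correlations show no such pairing, but they cannot exclude an effect shared by replicate number. On the second principal component, an axis holding 11.0% of the variance between arrays, replicate 1 was highest in both control groups. Replicates 1, 2 and 3 lay at 5.57, -11.84 and -20.07 in wild-type control. In puchi-2 control they lay at 4.96, -3.90 and -3.31.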

Additional observations from a re-analysis of the deposited data

Results flagged for a closer look

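Outside the probe sets with a gene, 5 probe sets that the annotation does not name passed limma's test when all 38408 probe sets were fitted together. They are given by probe set number, as control differences of puchi-2 minus wild type on the log2 scale with means ± SD (n = 3). Probe set 13495420 differed by -3.26 (adjusted p = 1.39e-05), from 8.78 ± 0.25 in wild type to 5.52 ± 0.37 in puchi-2, and by -3.48 with TOLS2, while rlk7-3 control differed from wild type by -0.55. Probe set 13390441 differed by -1.24 (adjusted p = 0.000211), from 5.16 ± 0.21 to 3.92 ± 0.11, and rlk7-3 lay on the other side of wild type at 1.72 (adjusted p = 4.44e-06). Probe set 13468534 differed by 0.79 (adjusted p = 0.00168) and by 0.82 with TOLS2. Probe set 13465561 differed by -1.19 (adjusted p = 0.0157), beside -1.42 in rlk7-3 (adjusted p = 0.00146). Probe set 13387741 differed by -1.65 (adjusted p = 0.0164) and by -1.93 with TOLS2. The direction with TOLS2 was the same in all 5.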

How the results depend on the processing

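The 3 control calls became 8 with all probe sets fitted, 1 with only the brighter probe sets (where QQS and ZCW7, below the median level, were left out), 1 with only the groups compared and 1 without replicate 1 of every group. They numbered 2 to 3 when single arrays were left out, and 4 with array weights. With the replicate number as a block in the control comparison the count was 3, with 1386 at an unadjusted p below 0.05, beside 1092 without the block. QQS was called wherever it was tested (difference 2.72 to 3.02, adjusted p 9.15e-08 to 0.0284). ZCW7 lost its call with only the groups compared and without replicate 1 (adjusted p = 0.105 and 0.368), and AT2G23400 with the same settings (0.463 and 0.371) and without 1 of 4 arrays (0.0563 to 0.112). AT4G08780 gained a call with array weights (-1.76, adjusted p = 0.0225). Of 64 named genes under 994 gene and setting pairs, 985 kept direction and side of the threshold, 8 lost a call, 1 gained a call and 0 reversed.

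The TOLS2 count of 13 became 33 with all probe sets (22 distinct, since 12 hold identical values), 23 with the brighter, 30 with a trended robust prior, 64 with array weights, 1 with only the groups compared, 2 without replicate 1, and 7 to 24 without single arrays. The count of 0 for the difference between genotype differences became 12 with all probe sets, which hold identical values and are 1 distinct signal (-1.23). The rlk7-3 count of 9 became 15 with all probe sets, 15 with the brighter, 19 with the trended prior, 2 with only the groups compared, 18 with the replicate block, 1 without replicate 1, and 3 to 6 without single arrays. The causes of the other shifts were not tested.

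The median of the photosynthesis list lay between -0.37 and -0.26 under the settings above, which were added for the 2 list medians after the data were seen, with 10 of 10 genes lower except 9 without puchi-2 control replicate 2. That of the auxin list fell to 0.03 without wild-type control replicate 1. The number of arrays limits all of these values. The median 95% interval half-width was 0.27 for a probe set taken alone, and the test over all probe sets asked for more. The called differences were 2.86, 1.38 and -0.75, while uncalled differences reached -1.80, so moderate differences may have been missed.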
